A study of Mus musculus with 18 samples.

Results

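The genes described here are 9 genes of the white adipocyte, Fabp4, Car3, Adipoq, Retn, Cfd, Cidec, Plin1, Pck1 and Lep, out of 20979 genes in a table of mouse testis RNA. They were chosen by name, with their levels in these libraries already known, so their levels and group differences are given as a description. Transcripts of Fabp4 and Car3 were higher in all 6 recipient libraries of gut microbiota, and in 1 library outside them, than in the 11 others. In the rest of the 9 genes some recipient libraries did not exceed those 11. Adipoq was well above 0 everywhere, and Plin1 overlapped between groups. The series set out to explore what transfer of gut microbiota does in testes harmed by fatty feeding plus STZ. Testes of 10-week-old ICR mice, an outbred stock, were sequenced as 18 libraries, 3 in each of 6 groups. HFD_STZ_AOS_FMT mice had a high fat diet and STZ (streptozotocin, which kills pancreatic beta cells) and fecal microbiota from donors given AOS at 10 mg/kg, an abbreviation the labels do not expand. HFD_STZ_control_FMT mice had the diet with STZ and microbiota from control donors. HFD_STZ_AOS mice had the diet with STZ and AOS itself at 10 mg/kg, HFD_STZ mice had the diet with STZ alone, AOS mice had 10 mg/kg AOS alone, and control mice had none of these. No label says that the libraries of a group came from separate animals, so a p-value here reflects only how far these samples spread, and that spread may be technical.

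White adipocytes store fat as triglyceride in a lipid droplet and release it as fatty acids. They also secrete hormones that act on other organs, among them leptin, adiponectin and, in mice, resistin. The seminiferous tubules of the testis hold germ cells and Sertoli cells, while white fat lies outside the testis, next to the epididymis. In a bulk library, fewer cells of a type and less RNA per cell cannot be told apart.

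Levels are RPKM, reads scaled to transcript length and library size, so levels of different genes may be compared. In the GENCODE vM21 annotation of GRCm38 all 9 are protein-coding genes and none overlaps another gene. Fabp4 lies at chr3:10204088-10208576 on the minus strand and Car3 at chr3:14863512-14872523 on the plus strand. The hormone genes are Adipoq at chr16:23146536-23158028, Retn at chr8:3655770-3660110 and Lep at chr6:29060220-29073877, all on the plus strand. Cfd lies at chr10:79890853-79892655 and Pck1 at chr2:173153048-173159273 on the plus strand, and Cidec at chr6:113424634-113435760 and Plin1 at chr7:79720218-79732903 on the minus strand.

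Because the 9 genes moved together across libraries, their promoters were searched for motifs of factors known from adipocytes. The RefSeq table of build GRCm38.p6 held promoters, from 250 bases before to 50 bases after the gene's start, for 7 of the 9 genes, in 8 windows. The stretches shown end at or just before the start of Adipoq, which varied least between libraries, of Cfd, which separated the highest libraries most widely, and of Lep, which had the lowest level. Capitals mark CCAAT (on either strand) in Adipoq and TTGCNNAA, a form of the C/EBP site, in Lep. They cover chr16:23146386-23146535, chr10:79890703-79890852 and chr6:29060071-29060220, all on the plus strand.
Adipoq: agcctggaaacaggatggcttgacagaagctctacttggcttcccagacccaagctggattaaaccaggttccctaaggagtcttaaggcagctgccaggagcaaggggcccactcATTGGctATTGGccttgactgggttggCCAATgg
Cfd: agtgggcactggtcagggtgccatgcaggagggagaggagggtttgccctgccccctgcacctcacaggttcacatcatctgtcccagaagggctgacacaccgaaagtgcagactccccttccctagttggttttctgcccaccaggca
Lep: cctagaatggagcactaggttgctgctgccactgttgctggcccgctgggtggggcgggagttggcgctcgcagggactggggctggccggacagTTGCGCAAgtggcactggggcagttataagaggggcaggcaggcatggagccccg

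On both strands of the whole windows, TTGCNNAA was found in 3 of the 7 genes (Cidec, Plin1 and Lep), and it occurs in 10.8% of all 32851 windows. CCAAT was found in Adipoq alone, 3 times, and occurs in 37.4% of all windows. The nuclear receptor site AGGTCA, the direct repeat of it that PPAR binds with RXR (searched with 1 base between the repeats), and TATAAA were in none of the 7 genes, against 16.3%, 0.04% and 13.6% of all windows. The direct repeat contains the single site, so those 2 searches overlap. The absence of these letters concerns these windows only.

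Taken as the summed level of the 9 genes, the libraries ranged widely within the groups that had high values. The sums were 73.38, 93.96 and 203.83 RPKM in HFD_STZ_AOS_FMT, 71.09, 60.23 and 208.54 RPKM in HFD_STZ_control_FMT, and 23.22, 22.78 and 162.07 RPKM in HFD_STZ_AOS. They were 31.10, 32.77 and 18.12 RPKM in HFD_STZ, 49.08, 22.46 and 18.90 RPKM in AOS, and 43.77, 20.10 and 35.06 RPKM in control. Thus every recipient library lay above every HFD_STZ, AOS and control library, while HFD_STZ_AOS held 1 high and 2 low libraries. In order of their means the groups were HFD_STZ_AOS_FMT (124 ± 70.1 RPKM), HFD_STZ_control_FMT (113 ± 82.7), HFD_STZ_AOS (69.4 ± 80.3), control (33.0 ± 12.0), AOS (30.1 ± 16.5) and HFD_STZ (27.3 ± 8.02; SD, n = 3 each). Neighbours in this order differed by less than the larger of their SDs.

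Before the single genes, 4 libraries stood apart in another way, with over 100 RPKM of Crisp1, a secreted protein of the epididymis. Crisp1 was at 0.99, 11.49 and 164.71 RPKM in HFD_STZ_AOS_FMT, 1.83, 116.64 and 23.11 RPKM in HFD_STZ_control_FMT and 2.93, 0.45 and 156.69 RPKM in HFD_STZ_AOS. It was at 0.15 RPKM in each HFD_STZ library, 0.05, 0.10 and 0.05 RPKM in AOS, and 2.71, 0.15 and 158.77 RPKM in control. The same library could be high in one measure and not in the other: control replicate 3 had 158.77 RPKM of Crisp1 and 35.06 RPKM of the adipocyte genes, and HFD_STZ_control_FMT replicate 3 had the highest adipocyte sum, 208.54 RPKM, with 23.11 RPKM of Crisp1. HFD_STZ_AOS_FMT replicate 3 was high in both, with 164.71 RPKM of Crisp1 and 203.83 RPKM of the adipocyte genes. So was HFD_STZ_AOS replicate 3, with 156.69 and 162.07 RPKM. Ratios without these 4 libraries are given beside the genes, apart from Lep.

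**Figure D1:**
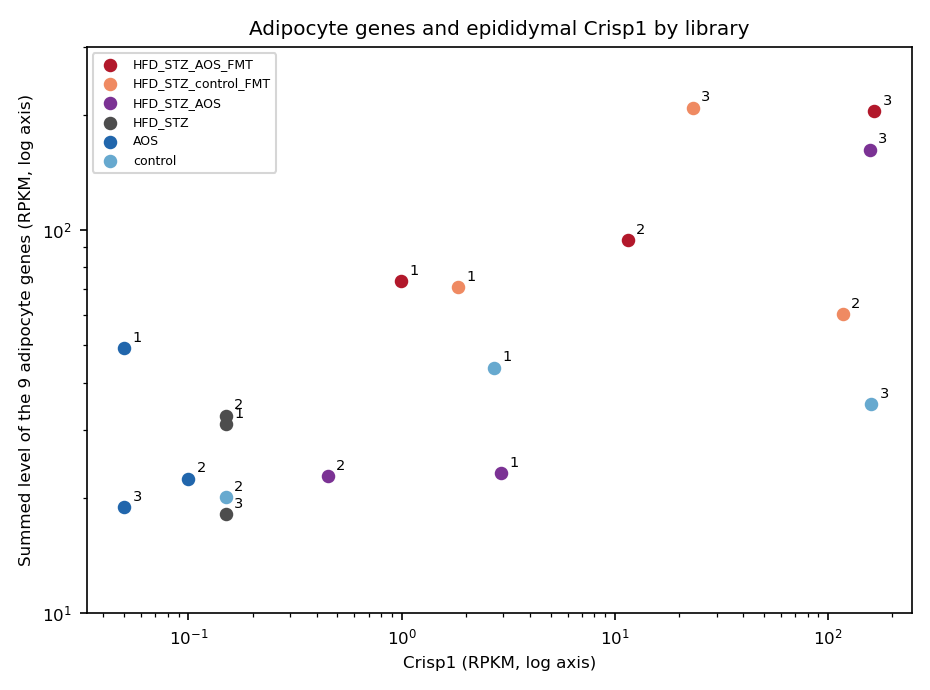
Summed level of the 9 adipocyte genes (vertical, RPKM, log axis) against Crisp1 (horizontal, RPKM, log axis), 1 point per library, coloured by group and marked with the replicate number. The 6 recipient libraries sit at 60.23 RPKM or above at Crisp1 levels between 0.99 and 164.71 RPKM, and control replicate 3 sits at 35.06 RPKM with Crisp1 at 158.77 RPKM.

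Fabp4, a carrier of fatty acids in the adipocyte cytosol that is also made by macrophages and capillary endothelium, had the highest mean level of the 9. It was at 30.76, 46.19 and 93.87 RPKM in HFD_STZ_AOS_FMT, 28.69, 22.71 and 104.95 RPKM in HFD_STZ_control_FMT, and 5.12, 3.73 and 72.55 RPKM in HFD_STZ_AOS. It was at 10.25, 11.52 and 3.15 RPKM in HFD_STZ, 13.17, 4.46 and 2.47 RPKM in AOS, and 11.28, 3.84 and 6.86 RPKM in control. All 6 recipient libraries lay above all HFD_STZ, AOS and control libraries, and the highest library was 42.5 times the lowest. The mean was 6.85 times that of HFD_STZ in HFD_STZ_AOS_FMT (56.9 ± 32.9 against 8.31 ± 4.51 RPKM) and 6.27 times in HFD_STZ_control_FMT (52.1 ± 45.9 RPKM; SD, n = 3 each). Without the Crisp1-high libraries these ratios were 4.63 and 8.04.

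Car3, a carbonic anhydrase abundant in adipocytes and in slow skeletal muscle, was the only other gene of the 9 whose 6 recipient libraries all exceeded the 11 libraries left when HFD_STZ_AOS replicate 3 is set aside. It was at 17.26, 20.55 and 49.37 RPKM in HFD_STZ_AOS_FMT, 14.75, 13.30 and 48.97 RPKM in HFD_STZ_control_FMT, and 2.08, 1.99 and 35.26 RPKM in HFD_STZ_AOS. It was at 4.37, 4.90 and 2.13 RPKM in HFD_STZ, 9.20, 3.38 and 1.23 RPKM in AOS, and 8.90, 2.87 and 7.64 RPKM in control. Its mean was 7.65 times that of HFD_STZ in HFD_STZ_AOS_FMT and 6.76 times in HFD_STZ_control_FMT, or 4.98 and 8.38 times without the Crisp1-high libraries. Of all tested genes 14, or 0.101%, had such a gap, against 2 of these 9. Summed markers of skeletal muscle were at 2.52 to 3.30 RPKM in HFD_STZ_AOS_FMT, 2.70 to 2.97 RPKM in HFD_STZ_control_FMT and 2.70 to 3.46 RPKM in HFD_STZ. In HFD_STZ_AOS they were at 2.23 to 4.40 RPKM, with the highest sum of all libraries in replicate 3. The part of muscle, slow or fast, in the Car3 values was not tested.

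Among the hormone genes, Adipoq, which encodes adiponectin, had a high level in every library and a narrow spread. It was at 13.35, 13.23 and 16.20 RPKM in HFD_STZ_AOS_FMT, 14.89, 13.11 and 16.32 RPKM in HFD_STZ_control_FMT, and 10.38, 12.91 and 16.49 RPKM in HFD_STZ_AOS. It was at 11.07, 11.23 and 9.42 RPKM in HFD_STZ, 13.12, 10.18 and 12.32 RPKM in AOS, and 11.51, 9.43 and 11.41 RPKM in control. The recipients lay above HFD_STZ and control without overlap, but the highest library was only 1.75 times the lowest. The means were 14.3 ± 1.68 RPKM in HFD_STZ_AOS_FMT and 14.8 ± 1.61 RPKM in HFD_STZ_control_FMT, against 10.6 ± 1.00 RPKM in HFD_STZ (SD, n = 3 each). The ratios of these means, 1.35 and 1.40, were 1.26 and 1.48 without the Crisp1-high libraries.

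Retn, which encodes resistin, was at 3.10, 4.17 and 7.67 RPKM in HFD_STZ_AOS_FMT, 2.73, 3.82 and 8.48 RPKM in HFD_STZ_control_FMT, and 2.16, 1.53 and 6.66 RPKM in HFD_STZ_AOS. It was at 1.32, 1.31 and 1.37 RPKM in HFD_STZ, 3.16, 0.92 and 0.81 RPKM in AOS, and 3.61, 1.49 and 2.24 RPKM in control. It was the single one of the 9 genes with every HFD_STZ_AOS library above every HFD_STZ library, and the single one with every HFD_STZ library below every control library. The recipients overlapped control and AOS. The mean in HFD_STZ_AOS_FMT was 3.74 times, and in HFD_STZ_control_FMT 3.76 times, that in HFD_STZ, or 2.73 and 4.20 times without the Crisp1-high libraries.

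Lep, which encodes leptin, was near the limit of detection. It was at 0.28, 0.24 and 0.42 RPKM in HFD_STZ_AOS_FMT, 0.28, 0.12 and 1.30 RPKM in HFD_STZ_control_FMT, and 0.10, 0.16 and 0.54 RPKM in HFD_STZ_AOS. It was listed at 0, 0.10 and 0 RPKM in HFD_STZ, 0.12, 0 and 0.02 RPKM in AOS, and 0.10, 0.08 and 0.10 RPKM in control. At the depth read from the steps between low values, between 13000000 and 13500000 reads, 1 read of Lep is worth about 0.0232 RPKM, so AOS replicate 3 held about 1 read. The 6 recipients lay above all HFD_STZ and all control libraries, at the closest with 0.12 RPKM against 0.10 RPKM. Lep reached 1 RPKM in 1 library and was therefore not among the 13874 genes tested, which had at least 1 RPKM in at least 3 libraries.

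Receptors of these hormones were measured in the same libraries. Cap1, which binds resistin in humans, was at 60.10 to 66.90 RPKM in the recipients and 62.95 to 68.37 RPKM in HFD_STZ. Adipor1, a receptor of adiponectin, was at 27.58 to 31.71 RPKM in the 6 recipient libraries and at 29.77 to 30.71 RPKM in HFD_STZ. Lepr, the leptin receptor, was at 0.06 to 0.15 RPKM in the recipients and at 0.15 to 0.19 RPKM in HFD_STZ. Of the 5 receptor genes listed, including Adipor2 and Cdh13, 4 were tested and 0 were called in any of the 6 comparisons (limma, adjusted p under 0.05). Of all 13874 tested genes 0 to 3, at most 0.0216%, were called in a comparison, so 0 of 4 says little about the receptors. Their smallest adjusted p against HFD_STZ was 0.447 in HFD_STZ_AOS_FMT and 0.562 in HFD_STZ_control_FMT.

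Cfd encodes adipsin, a serine protease of the complement system that adipocytes secrete. It was at 6.08, 5.98 and 30.92 RPKM in HFD_STZ_AOS_FMT, 7.13, 4.97 and 21.20 RPKM in HFD_STZ_control_FMT, and 1.9, 1.32 and 25.02 RPKM in HFD_STZ_AOS. It was at 2.17, 2.26 and 0.74 RPKM in HFD_STZ, 8.70, 2.31 and 1.23 RPKM in AOS, and 6.28, 1.42 and 5.52 RPKM in control. The recipients lay above HFD_STZ without overlap but overlapped AOS and control. The mean was 8.31 times that of HFD_STZ in HFD_STZ_AOS_FMT, the largest ratio among the 8 tested genes in that group, and 3.50 times without replicate 3, which is Crisp1-high. In HFD_STZ_control_FMT it was 6.44 times, and 8.22 times without the Crisp1-high replicate 2.

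The lipid droplet genes were lower in level. Cidec, which promotes the fusion of lipid droplets, was at 0.88, 1.59 and 2.24 RPKM in HFD_STZ_AOS_FMT, 1.09, 0.86 and 3.64 RPKM in HFD_STZ_control_FMT, and 0.28, 0.16 and 2.33 RPKM in HFD_STZ_AOS. It was at 0.45, 0.41 and 0.44 RPKM in HFD_STZ, 0.57, 0.36 and 0.20 RPKM in AOS, and 1.06, 0.20 and 0.20 RPKM in control. Its recipient libraries exceeded all HFD_STZ and all AOS libraries and overlapped control replicate 1. Its mean was 3.62 times that of HFD_STZ in HFD_STZ_AOS_FMT and 4.30 times in HFD_STZ_control_FMT, or 2.85 and 5.46 times without the Crisp1-high libraries.

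Plin1, which coats the adipocyte's lipid droplet and controls access of lipases, was at 0.97, 0.92 and 1.87 RPKM in HFD_STZ_AOS_FMT, 0.90, 1.19 and 2.29 RPKM in HFD_STZ_control_FMT, and 1.02, 0.88 and 2.01 RPKM in HFD_STZ_AOS. It was at 0.99, 0.89 and 0.77 RPKM in HFD_STZ, 0.78, 0.77 and 0.59 RPKM in AOS, and 0.85, 0.59 and 0.96 RPKM in control. Recipients and HFD_STZ overlapped, and 3 of the 6 recipient libraries lay above all HFD_STZ libraries. The mean in HFD_STZ_AOS_FMT was 1.42 times that in HFD_STZ, and 1.07 times without the Crisp1-high replicate 3. In HFD_STZ_control_FMT it was 1.65 times, and 1.81 times without the Crisp1-high replicate 2.

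Pck1 encodes the cytosolic phosphoenolpyruvate carboxykinase, which in adipocytes makes glycerol phosphate for triglycerides and in liver serves gluconeogenesis. It was at 0.70, 1.09 and 1.27 RPKM in HFD_STZ_AOS_FMT, 0.63, 0.15 and 1.39 RPKM in HFD_STZ_control_FMT, and 0.18, 0.10 and 1.21 RPKM in HFD_STZ_AOS. It was at 0.48, 0.15 and 0.10 RPKM in HFD_STZ, 0.26, 0.08 and 0.03 RPKM in AOS, and 0.18, 0.18 and 0.13 RPKM in control. HFD_STZ_AOS_FMT lay above HFD_STZ without overlap, while HFD_STZ_control_FMT replicate 2, at 0.15 RPKM, lay among the HFD_STZ libraries. The mean was 4.19 times that of HFD_STZ in HFD_STZ_AOS_FMT and 2.97 times in HFD_STZ_control_FMT, or 3.68 and 4.15 times without the Crisp1-high libraries. Of the other gluconeogenic genes, Fbp1, a fructose bisphosphatase, was at 360.99 to 417.48 RPKM in the recipients and 339.88 to 347.33 RPKM in HFD_STZ, while G6pc, the glucose-6-phosphatase of liver, was at 0.09 RPKM or less in every library.

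**Figure D2:**
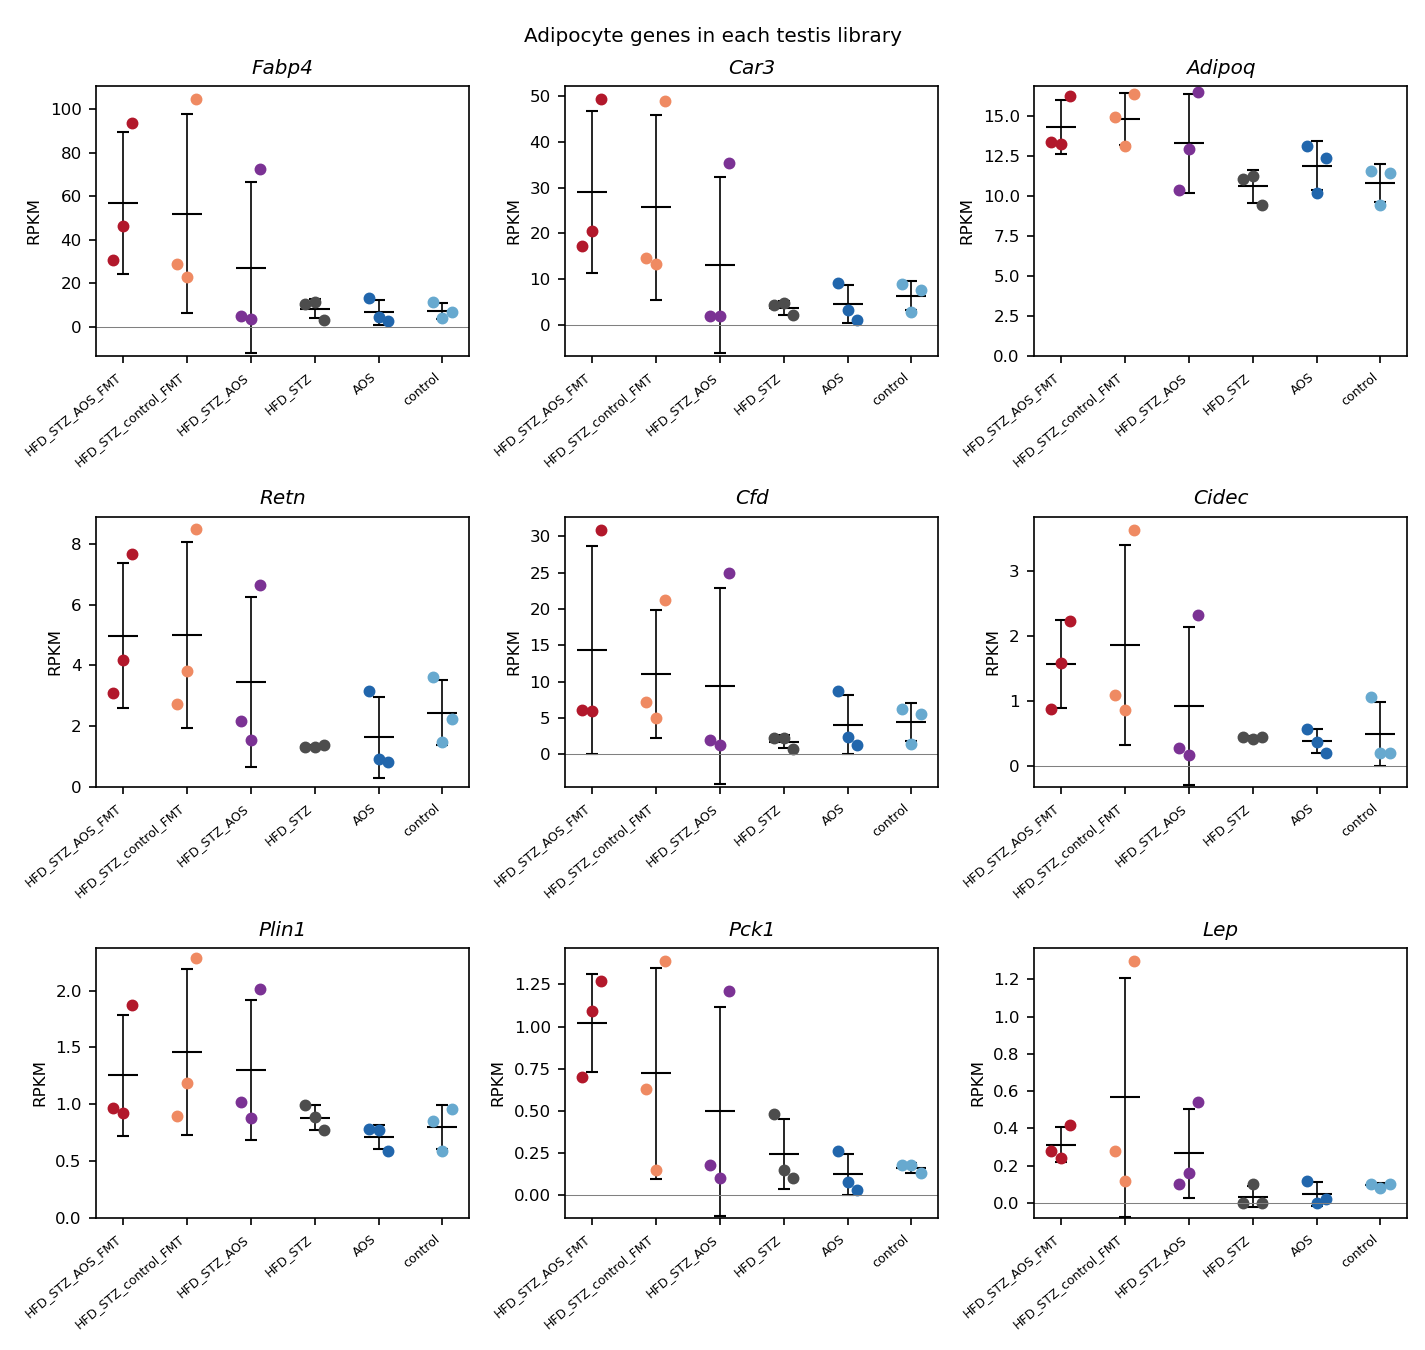
RPKM (vertical, linear axes that differ between panels) of each of the 9 genes in the 3 libraries of each group, with replicates 1 to 3 from left to right, the group mean as a bar and the SD as an error line. The rightmost point of the first 3 groups, replicate 3, is the highest of its group in all 9 panels, and Adipoq stays between 9.42 and 16.49 RPKM throughout.

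All 9 genes had the same 3 highest libraries, HFD_STZ_AOS_FMT replicate 3, HFD_STZ_control_FMT replicate 3 and HFD_STZ_AOS replicate 3. Among all tested genes 50, or 0.360%, had those 3 libraries above the 15 others. HFD_STZ_control_FMT replicate 3 was the highest for 6 of the 9 genes, HFD_STZ_AOS_FMT replicate 3 for Car3 and Cfd, and HFD_STZ_AOS replicate 3 for Adipoq. All 6 recipient libraries lay above all HFD_STZ libraries for 7 of the 9 genes, against 3.54% of tested genes, above all control libraries for 4 against 4.81%, and above all AOS libraries for 4 against 3.20%. The counts over HFD_STZ and control include Lep, which was not tested and whose lowest recipient had 0.12 RPKM against 0.10 RPKM. A single read of Lep is worth about 0.0232 RPKM.

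Set against Fabp4 across the 18 libraries, the other genes differed in the level they kept where Fabp4 was low. These relations share their libraries and are given as a description. For each 100 RPKM of Fabp4, Car3 was higher by 47.7 RPKM from an intercept of 1.18 RPKM (Pearson r 0.993, Spearman rho 0.971, and r 0.984 without the 2 libraries highest in Fabp4). Cfd was higher by 25.3 RPKM from an intercept of 0.82 RPKM (r 0.920, rho 0.895, and 0.867 without those libraries). Adipoq was higher by 6.0 RPKM only, from an intercept of 11 RPKM (r 0.856, rho 0.827, and 0.810 without them). Plin1 likewise had an intercept of 0.70 RPKM and was higher by 1.38 RPKM (r 0.923, rho 0.755, and 0.805 without them), whereas Pck1, also at 1.38 RPKM per 100 RPKM of Fabp4, had an intercept of 0.10 RPKM. Lep had an intercept of 0.00 RPKM. Retn was higher by 6.87 RPKM from an intercept of 1.33 RPKM, and Cidec by 2.84 RPKM from an intercept of 0.19 RPKM. The ratio to Fabp4 was not constant: Car3 was at 40.6% to 111.4% of Fabp4 over the libraries. Over the 36 pairs among the 9 genes, r of the log2 levels was between 0.755 and 0.979.

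**Figure D3:**
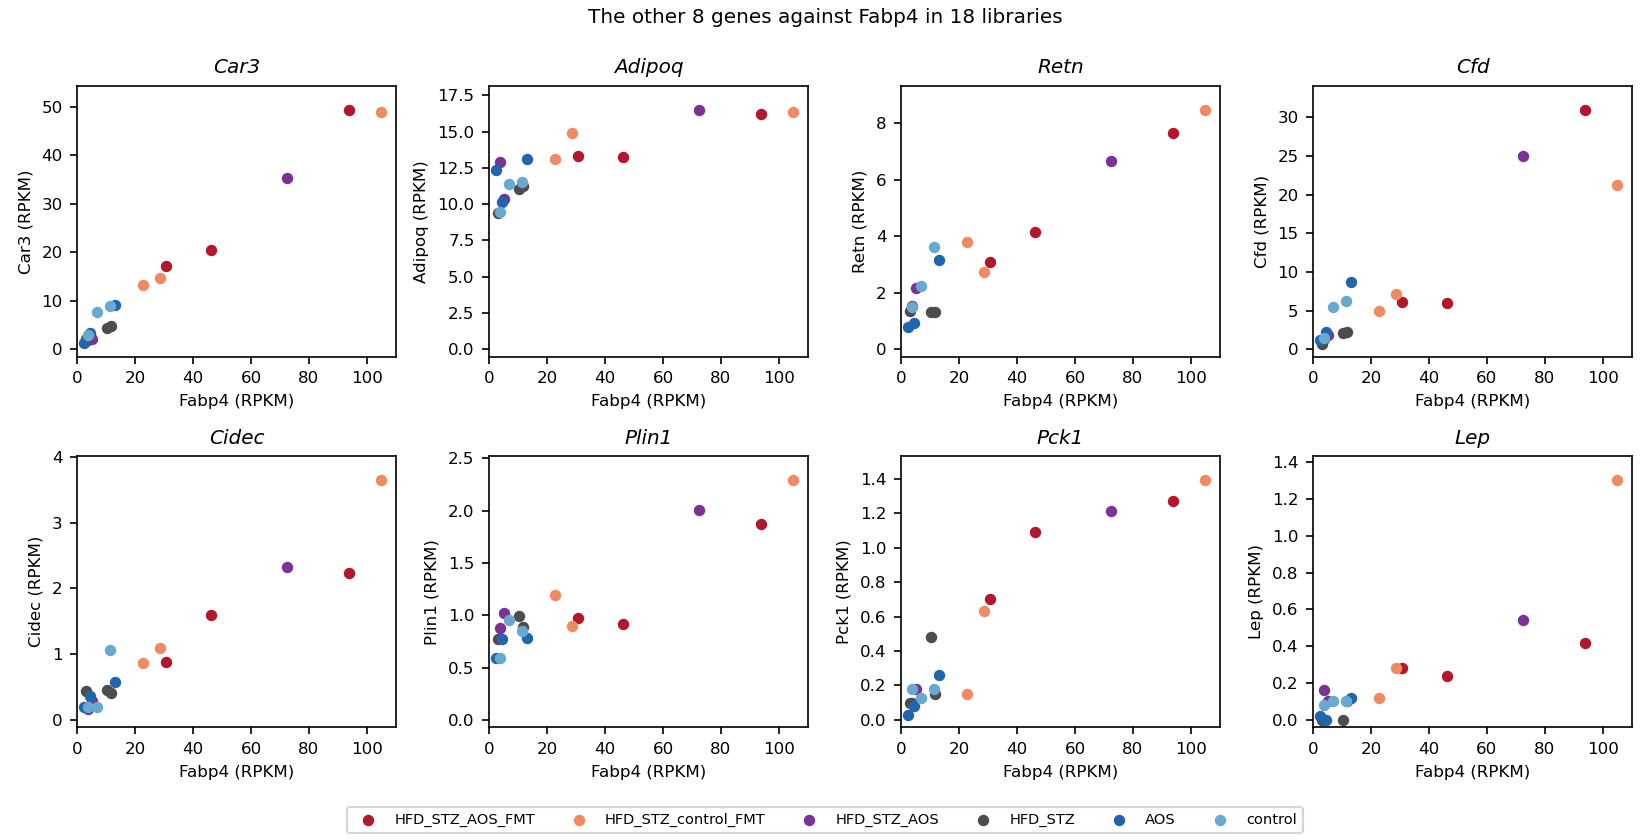
Level of each of the other 8 genes (vertical, RPKM) against Fabp4 (horizontal, RPKM), 1 point per library, coloured by group. Car3 falls close to a line through the origin, while Adipoq and Plin1 start from levels of about 11 and 0.70 RPKM where Fabp4 is low.

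The next question was how transfer of microbiota from AOS donors compares with the diet and STZ alone. For HFD_STZ_AOS_FMT against HFD_STZ, all 9 genes were higher by difference of mean log2(RPKM + 1), a scale that understates changes of low genes. The differences were between 0.24 and 2.64 with a median of 0.81, against a median of -0.02 over all tested genes. In limma's test with Benjamini-Hochberg adjustment over all tested genes, 0 of the 8 tested were called, and 2 of all genes (0.0144%). At an unadjusted p under 0.05 there were 7 of the 8 and 2006 of all 13874 genes. Pck1, among the 7, reached 1 RPKM only in 4 libraries, each a recipient or HFD_STZ_AOS replicate 3, and so passed the filter on low values through the libraries where it was high. Cidec, also among the 7, reached 1 RPKM outside the recipients only in HFD_STZ_AOS replicate 3 and control replicate 1. Plin1 did so only in HFD_STZ_AOS replicates 1 and 3. Both therefore needed recipient libraries to pass the filter. HFD_STZ_AOS_FMT lay above HFD_STZ without overlap for 8 of the 9 genes, the untested Lep among them, against 7.82% of tested genes. Without HFD_STZ_AOS_FMT replicate 3 the median difference was 0.62.

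For transfer from control donors, HFD_STZ_control_FMT against HFD_STZ, all 9 genes were higher, and the differences were between 0.35 and 2.33 with a median of 0.87, against -0.03 over all tested genes. By limma 0 of 8 were called, and 1 of all genes (0.00721%). At an unadjusted p under 0.05 there were 6 of the 8 and 2243 of all genes. Cidec, among the 6, passed the filter on low values only with the help of recipient libraries. The groups did not overlap for 7 of 9, the untested Lep among them, against 8.0% of tested genes. Without HFD_STZ_control_FMT replicate 3 the median difference was 0.46. This comparison and that of HFD_STZ_AOS_FMT share the HFD_STZ libraries, so their differences are not independent.

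Between the donors, HFD_STZ_AOS_FMT against HFD_STZ_control_FMT, 5 of the 9 genes were higher and 4 lower, with a median log2 difference of 0.04. Fabp4 differed by 0.31 ± 0.88, Adipoq by -0.05 ± 0.14 and Pck1 by 0.28 ± 0.26 (log2 scale, SE of the fit). These errors leave room for sizeable differences in Fabp4 in either direction. By limma 0 of 8 were called, with 0 at an unadjusted p under 0.05, against 3 of all genes called (0.0216%) and 635 at an unadjusted p under 0.05. No gene of the 9 had all HFD_STZ_AOS_FMT libraries above all HFD_STZ_control_FMT libraries, against 5.15% of tested genes.

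AOS given directly on the diet, HFD_STZ_AOS against HFD_STZ, gave higher means for all 9 genes, with a median log2 difference of 0.28, but 5 of them turned negative without replicate 3. These were Fabp4 (log2 difference -0.64), Car3 (-0.61), Cidec (-0.23), Pck1 (-0.11) and Cfd (-0.014), and the median was -0.01. Retn (0.28), Adipoq (0.12) and Plin1 (0.05) stayed above 0, as did Lep. Fabp4 averaged 3.27 times its HFD_STZ mean with that library and 0.533 times without it. By limma 0 of 8 were called, with 0 at an unadjusted p under 0.05, and 0.00% of all genes were called, with 1734 at an unadjusted p under 0.05. HFD_STZ_AOS lay above HFD_STZ without overlap for 1 gene, Retn, against 7.37% of tested genes.

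The diet with STZ and AOS were each also set against control. For HFD_STZ against control, 3 genes were higher and 6 lower, with a median log2 difference of -0.02 and the widest difference at Cfd (-0.89 ± 0.85, SE). No gene of the 9 had all HFD_STZ libraries above all control libraries, against 11.7% of tested genes, and 1, Retn, had them all below, against 4.53%. For AOS against control, 1 gene was higher and 8 lower, with a median of -0.07, and no gene had all AOS libraries above control (7.76% of tested genes) or below it (14.8%). In each of these comparisons limma called 0 of 8 and 0.00% of all genes. At an unadjusted p under 0.05 there were 0 of the 8 in each, with 1151 of all genes for HFD_STZ and 1923 for AOS. Among the 6 groups as a whole, limma's F test called 0 of 8 and 6 of all genes (0.0432%), with 5 of the 8 and 2923 of all genes at an unadjusted p under 0.05. Pck1, which passed the filter through the libraries where it was high, is among the 5.

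Genes that were not used in the choice give a wider view of adipocyte transcripts, and they were split by level, at a mean of 30 RPKM chosen after the values were seen. Of 30 other genes of white adipocytes, 24 were tested, and 0 were called in any comparison, against 0 to 3 of all genes in each pairwise one. The smallest adjusted p was 0.217 in HFD_STZ_AOS_FMT against HFD_STZ, where 6 had an unadjusted p under 0.05, and 0.165 in HFD_STZ_control_FMT against HFD_STZ, where 7 did, against 2006 of all 13874 tested genes for HFD_STZ_AOS_FMT and 2243 for HFD_STZ_control_FMT. Plin4 and Sncg are in both counts and Lpl in that of HFD_STZ_AOS_FMT, and these passed the filter on low values through libraries where they were high. Plin4 reached 1 RPKM only in replicate 3 of HFD_STZ_AOS_FMT, HFD_STZ_control_FMT and HFD_STZ_AOS. Lpl reached it only in the recipients and HFD_STZ_AOS replicate 3, and Sncg there and in HFD_STZ replicate 2. Acaca, which was lower, is in both counts. Of the 24, 17 were higher and 7 lower in HFD_STZ_AOS_FMT, and 16 were higher and 8 lower in HFD_STZ_control_FMT. Their median log2 differences were 0.10 and 0.09, against -0.02 and -0.03 over all tested genes. Acaca, the acetyl-CoA carboxylase of fatty acid synthesis, lay below all HFD_STZ libraries in both recipient groups, at 8.78, 9.28 and 9.38 RPKM in HFD_STZ_AOS_FMT and 8.79, 9.51 and 9.64 RPKM in HFD_STZ_control_FMT, against 11.08, 10.49 and 10.47 RPKM in HFD_STZ. Gpd1 and Pde3b lay below HFD_STZ without overlap in HFD_STZ_control_FMT. Thus 1 of the 30 genes lay below in HFD_STZ_AOS_FMT and 3 in HFD_STZ_control_FMT. The share of all tested genes below HFD_STZ in this way was not counted, so these are a description. The list was compiled with earlier results of these libraries known.

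Some genes of this list that are low in the testis had recipient libraries above HFD_STZ. Lpl, the lipoprotein lipase that releases fatty acids from plasma triglyceride, was at 1.47, 2.72 and 4.66 RPKM in HFD_STZ_AOS_FMT, 1.19, 1.18 and 5.0 RPKM in HFD_STZ_control_FMT and 0.75, 0.70 and 0.40 RPKM in HFD_STZ. Scd1, a desaturase of fatty acids, was at 7.83, 11.73 and 25.40 RPKM in HFD_STZ_AOS_FMT, 8.02, 8.05 and 30.91 RPKM in HFD_STZ_control_FMT and 5.89, 7.23 and 5.21 RPKM in HFD_STZ. Plin4, another droplet coat protein, was at 0.84, 0.78 and 1.71 RPKM in HFD_STZ_AOS_FMT, 0.72, 0.65 and 2.15 RPKM in HFD_STZ_control_FMT and 0.41, 0.39 and 0.38 RPKM in HFD_STZ. In all 3 genes the recipients exceeded HFD_STZ without overlap, as for 9 of the 30 genes, against 3.54% of tested genes. The 9 include Adrb3 and Trarg1, which were too low to be tested. In limma's test HFD_STZ_AOS_FMT differed from HFD_STZ by a log2 difference of 1.21 ± 0.45 for Lpl (SE, adjusted p 0.256), which did not pass. Pparg, the regulator of adipocyte differentiation, was at 1.43, 1.67 and 1.80 RPKM in HFD_STZ_AOS_FMT and 1.31, 1.40 and 1.91 RPKM in HFD_STZ_control_FMT, overlapping HFD_STZ at 1.09, 1.48 and 1.31 RPKM.

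The genes of this list that the testis holds at a high level spread less between libraries. The 8 with a mean of 30 RPKM or more, Lipe, Pnpla2, Dgat1, Dgat2, Agpat2, Aqp7, Acsl1 and Adig, had means between 36.8 and 250.3 RPKM, and their highest library was 1.08 to 1.38 times the lowest. Lipe, the hormone-sensitive lipase, was at 122.33 to 130.32 RPKM in the recipients and 112.62 to 124.59 RPKM in HFD_STZ. Agpat2, an acyltransferase of triglyceride synthesis, was at 104.41 to 115.03 RPKM in the recipients and 91.26 to 101.81 RPKM in HFD_STZ, and the lipase gene Pnpla2 was at 127.48 to 135.52 RPKM in the recipients and 123.47 to 126.61 RPKM in HFD_STZ, so these 2 did not overlap. Acsl1, which activates long-chain fatty acids, was at 243.27 to 251.65 RPKM in the recipients and 247.19 to 254.20 RPKM in HFD_STZ. Of the 22 genes under 30 RPKM, 7 varied by more than 3 times between libraries and 3 had no ratio because a library was at 0.

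**Figure D4:**
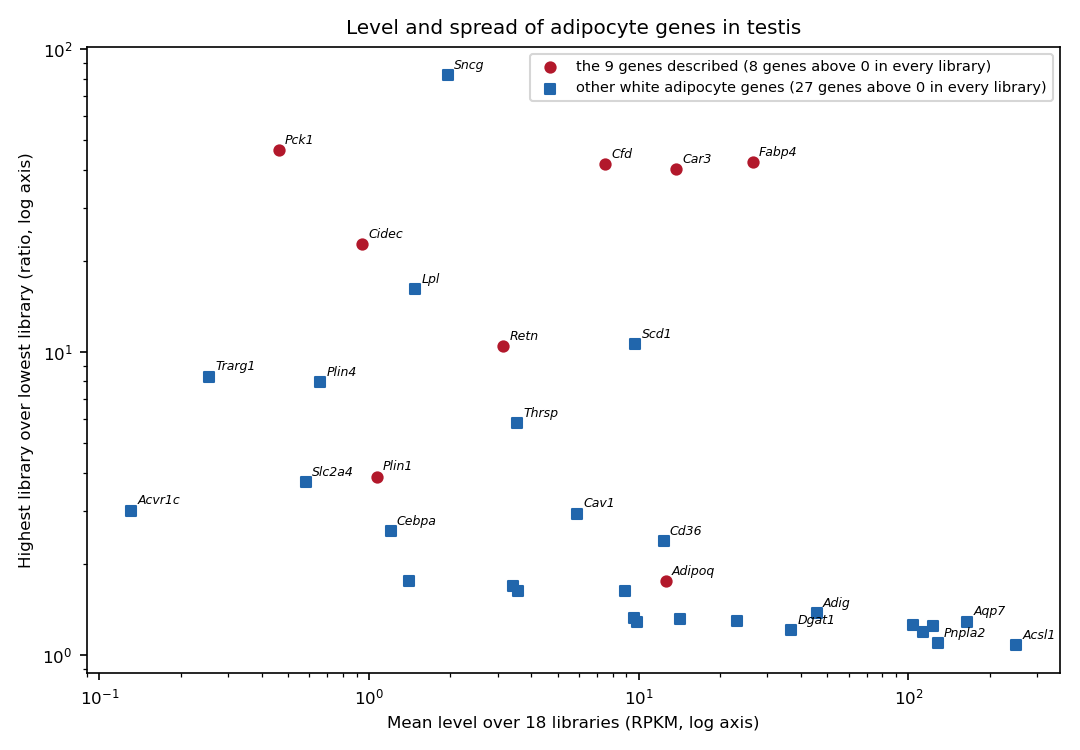
Highest over lowest library (vertical, ratio, log axis) against the mean level over 18 libraries (horizontal, RPKM, log axis) for the described genes and the other white adipocyte genes that were above 0 in every library. All genes with a mean of 30 RPKM or more lie at or below a ratio of 1.38, while Fabp4, Car3, Cfd and Pck1 lie at ratios between 40.1 and 46.3. The lowest library stands for about 1.08 reads of Pck1, against about 138 of Fabp4, so the Pck1 ratio rests on the counting floor.

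Relatives of the 9 genes are also transcribed in testis. Fabp9, a fatty acid carrier of the sperm head, was at 2349.33 to 2775.97 RPKM in the recipients and 2292.93 to 2449.43 RPKM in HFD_STZ. Retnla, a resistin relative made by alternatively activated macrophages and fat, was at 4.40, 3.50 and 7.02 RPKM in HFD_STZ_AOS_FMT, 2.19, 5.21 and 7.33 RPKM in HFD_STZ_control_FMT and 0.45, 1.35 and 0.74 RPKM in HFD_STZ. Its log2 difference from HFD_STZ was 1.68 ± 0.39 in HFD_STZ_AOS_FMT (SE, limma adjusted p 0.189) and 1.60 ± 0.39 in HFD_STZ_control_FMT (adjusted p 0.125). Of the 18 relatives, 13 were tested and 0 were called in any comparison, against 0 to 3 of all tested genes in each pairwise one. Of the relatives 2, Car2 and Retnla, had all recipients above all HFD_STZ libraries, against 3.54% of tested genes.

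Markers of other cell types were measured in the same libraries. Markers of the epididymis, 6 of 11 tested, summed to 20.62 to 372.20 RPKM in HFD_STZ_AOS_FMT, 10.08 to 238.10 RPKM in HFD_STZ_control_FMT and 6.97 to 7.90 RPKM in HFD_STZ. Lcn9, an epididymal lipocalin, was at 5.69, 0.21 and 2.46 RPKM in HFD_STZ_AOS_FMT, 0, 0.09 and 0 RPKM in HFD_STZ_control_FMT and 0, 0 and 0.10 RPKM in HFD_STZ. Blood cell markers, 4 of 6 tested, summed to 81.62 to 110.37 RPKM in HFD_STZ_AOS_FMT and 129.86 to 144.34 RPKM in HFD_STZ_control_FMT, both below HFD_STZ at 152.05 to 211.08 RPKM. None of the 4 was called against HFD_STZ by limma (smallest adjusted p 0.197 in HFD_STZ_AOS_FMT and 0.249 in HFD_STZ_control_FMT), against 2 and 1 of all tested genes. Adipose stroma markers summed to 19.20 to 25.23 RPKM in HFD_STZ_AOS_FMT, 20.36 to 27.42 RPKM in HFD_STZ_control_FMT and 21.29 to 24.57 RPKM in HFD_STZ, so these ranges overlapped. Macrophage markers summed to 54.56 to 70.67 RPKM in HFD_STZ_AOS_FMT, 58.37 to 79.87 RPKM in HFD_STZ_control_FMT and 56.14 to 60.32 RPKM in HFD_STZ. Endothelial markers summed to 9.10 to 11.62 RPKM in HFD_STZ_AOS_FMT, 9.86 to 12.15 RPKM in HFD_STZ_control_FMT and 9.79 to 11.12 RPKM in HFD_STZ, again with overlap. Mesothelial markers summed to 3.90 to 6.83 RPKM in HFD_STZ_AOS_FMT, 3.98 to 6.31 RPKM in HFD_STZ_control_FMT and 4.78 to 5.52 RPKM in HFD_STZ. In HFD_STZ_AOS the sums were 9.78 to 349.19 RPKM for epididymis, 107.65 to 174.93 RPKM for blood cells and 20.72 to 34.74 RPKM for stroma. They were 46.55 to 65.81 RPKM for macrophages, 8.98 to 11.60 RPKM for endothelium and 3.47 to 6.68 RPKM for mesothelium. In each of these lists replicate 3 was the highest of that group, and its stroma sum was the highest of all libraries. Of 8 brown or beige adipocyte genes 3 were tested. Over all libraries Cidea was at 4.17 to 6.31 RPKM, Cox7a1 at 2.0 to 10.08 RPKM and Prdm16 at 1.41 to 2.08 RPKM. Ucp1, the uncoupling protein, was at 0.08 RPKM or less in every library. Across the 18 libraries the log2 sum of the 9 genes had Pearson r 0.69 with the stroma sum, 0.67 with the epididymis sum, 0.65 with the macrophage sum, 0.61 with the endothelial sum and 0.58 with the sum of the other white adipocyte genes. In the same order Spearman rho was 0.55, 0.73, 0.57, 0.56 and 0.48, so by rank the epididymis sum was the closest of these. The part of these cell types in the adipocyte values was not tested. Testis markers, 9 of 10 tested, summed to 21530.90 to 30753.55 RPKM over all libraries.

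Of tested genes outside the 9, those whose levels were most like theirs were ranked by Pearson r with the mean standardised log2 level of the 9, over 18 libraries. The 10 highest were Lpl (r 0.977), Scd1 (0.954), Plin4 (0.952), Hp (0.951), Nnat (0.947), Cyp2e1 (0.917), Sncg (0.914), Mest (0.902), Cav1 (0.856) and Gsn (0.844). Without the 2 libraries highest in the 9 genes, r of these was between 0.704 and 0.958. Hp, which encodes haptoglobin, was at 2.26, 2.14 and 3.94 RPKM in HFD_STZ_AOS_FMT, 1.37, 0.78 and 5.18 RPKM in HFD_STZ_control_FMT and 0.27, 0.75 and 0.32 RPKM in HFD_STZ. Nnat, the imprinted neuronatin gene, was at 2.35, 1.95 and 5.11 RPKM in HFD_STZ_AOS_FMT, 1.77, 1.42 and 3.94 RPKM in HFD_STZ_control_FMT and 0.71, 0.52 and 0.36 RPKM in HFD_STZ. Hp and Nnat reached 1 RPKM only in recipients and HFD_STZ_AOS replicate 3, and so passed the filter on low values through libraries where they were high.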

How the data were processed

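Testis RNA of 18 libraries was sequenced, with groups and replicate numbers taken from the titles and treatments. Total RNA was taken from frozen testes by Trizol and column, per the labels' protocols. Bowtie 0.12.2 and build mm10 were used, per the submitters' processing notes. The counting tool, annotation and strand setting are not given in the sources used here. A single table was deposited by the authors, with 1 value per gene symbol and library, whose sums and low-value steps fit RPKM, and the unit was read from the values. RPKM is a share of the library, so abundant transcripts move all other values. Of 20985 rows, 6 that carried 3 repeated symbols were left out, and 26 rows, some of them among the repeated ones, were named as dates. The values summed to 588080.85 to 646821.96 per library, and 13022 to 13490 genes reached 1 RPKM. Depth was read from the steps between 2103 low values, and the fullest bin, with 206 values, is no proof of equal depth.

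The test was limma 3.58.1 (R 4.3.3) on log2(RPKM + 1), with 6 group coefficients over 18 libraries, a variance trend, 12 residual and 3.71 prior degrees of freedom, two-sided p-values and Benjamini-Hochberg adjustment over 13874 genes, with a threshold of 0.05. The 9 genes, the lists and the naming rule were chosen with earlier results of these data known. The rule named the 9 genes, the highest members of each list and the 10 tested genes most like the 9, but was followed only in part. Some list genes were named outside it after their values were seen (Lepr, Adipor1, Ucp1, G6pc, Lcn9, Pparg, Retnla, Acaca, Gpd1, Pde3b, Agpat2, Car2, Adrb3, Trarg1), and some of the highest members are only counted. Promoters came from RefSeq, and coordinates from GENCODE vM21. The fit was tested on simulated data. Alternatives were median-ratio scaling, no filter, a pseudocount of 0.1, a replicate block, the omission of each library and, chosen after seeing the data, the omission of the 4 libraries over 100 RPKM of Crisp1. Python 3.11.15, numpy 2.4.6, pandas 2.3.3 and matplotlib 3.10.9 were also used.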

Additional observations from a re-analysis of the deposited data

How the results depend on the processing

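Under every alternative run, 0 of the tested adipocyte genes of either list were called. The number of all genes called depended on the setting. With no filter on low values it was 1 for HFD_STZ_AOS against HFD_STZ, 16 for HFD_STZ_AOS_FMT against HFD_STZ, 4 for HFD_STZ_control_FMT against HFD_STZ, 11 between the transfers and 18 in the F test, against 0, 2, 1, 3 and 6 in the reported fit. A pseudocount of 0.1 gave 4 for HFD_STZ_AOS_FMT against HFD_STZ, and raised the median log2 differences of the 9 genes to 1.72 there and 1.67 for HFD_STZ_control_FMT. A smaller pseudocount enlarges the log2 differences of low genes. The cause of the changed numbers of calls was not tested. Libraries with the same replicate number were not alike as a rule. Of 45 same-number pairs, 11 had a correlation of deviations over 0.1, with a median of 0.0005 and a highest value of 0.411. Such a median cannot show whether a few libraries were linked, such as the replicates 3 that were highest in the 9 genes. The replicate block gave 2 calls for HFD_STZ_control_FMT against HFD_STZ and 10 in the F test, and changed no call of an adipocyte gene. Omitting 1 library at a time gave 0 to 3 calls for AOS against control, 0 to 4 for HFD_STZ_AOS_FMT and 1 to 14 for HFD_STZ_control_FMT against HFD_STZ, 0 to 2 between the transfers and 2 to 157 in the F test, the last without HFD_STZ_AOS replicate 2. The 14 came without HFD_STZ_control_FMT replicate 3, the 3 without AOS replicate 2, and the 4 without HFD_STZ replicate 2. Without the 4 Crisp1-high libraries the counts were 2 for HFD_STZ_AOS against HFD_STZ, and 0 for HFD_STZ_AOS_FMT against HFD_STZ, between the transfers and in the F test.

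For HFD_STZ_AOS against HFD_STZ, HFD_STZ_AOS replicate 3 is the only Crisp1-high library, and its omission reversed the log2 difference of 9 genes. Plin4, no longer past the filter, went to 0.763 times its HFD_STZ mean, against 1.71 with that library. Over the omissions of 1 library, the reversed value and the highest value were -0.64 and 1.34 for Fabp4, -0.61 and 1.19 for Car3, -0.014 and 1.73 for Cfd, -0.23 and 0.53 for Cidec, -0.11 and 0.39 for Pck1, -0.23 and 0.70 for Lpl, -0.39 and 0.68 for Scd1, -0.22 and 0.73 for Sncg, and -0.18 and 0.36 for Cav1. Omissions that leave few libraries in a group assume that these vary like the others. Depth limits Lep and Pck1 most, whose lowest values above 0 stand for about 1 read each.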

Other observations

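A scan of all 13874 tested genes for the same gap, made after the values were seen, found 14 genes whose 6 recipient libraries all lay above the 11 libraries other than HFD_STZ_AOS replicate 3. Besides Fabp4 and Car3 they included the adipocyte genes Sncg, Plin4, Lpl and Scd1, the imprinted genes Nnat and Mest, Dpt, which encodes the matrix protein dermatopontin, and Lgals1, which encodes galectin-1. The widest gap as a ratio was that of Nnat, whose lowest recipient library had 1.42 RPKM against 0.80 RPKM in the highest of the 11. Of the 14, Nnat, Hp, Dpt, Lpl and Plin4 stayed below 1 RPKM in all of the 11. They thus passed the filter on low values through libraries where they were high. Lgals1 had 39.11 RPKM in its lowest recipient library against 38.22 RPKM.

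The 50 genes with the same 3 highest libraries as the 9 genes included Ghr, the growth hormone receptor, with at least 1.95 RPKM in those libraries against at most 1.48 RPKM in the 15 others. They also included Clec10a, a lectin of macrophages, with at least 1.40 RPKM against at most 1.27 RPKM, and Cyp2e1, with at least 4.44 RPKM against at most 2.74 RPKM. Of 9 further genes of lipid synthesis and storage, Fitm1 was the only one called by the F test among the 6 groups (limma, adjusted p 0.0216). Its log2 difference was 1.40 for HFD_STZ against control. Against HFD_STZ it was 0.44 in HFD_STZ_AOS, -0.87 in HFD_STZ_AOS_FMT and -0.96 in HFD_STZ_control_FMT. None of these differences was called by itself.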
